A study of Hevea brasiliensis with 2 samples.

Results

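The unigenes described here are 10 of the 51192 in the deposited expression table of rubber tree (Hevea brasiliensis) latex. They carry 5 enzyme labels of mevalonate, prenyl diphosphate and rubber synthesis. They stand for acetyl-CoA acetyltransferase (AACT, 1 unigene), hydroxymethylglutaryl-CoA reductase (HMGR, 5 unigenes), farnesyl diphosphate synthase (FDPS, 1 unigene) and Hevea rubber transferase 2 (HRT2, 1 unigene). The other 2 unigenes are labelled geranylgeranyl diphosphate synthase (GGPPS) here. The study calls them geranyl-diphosphate synthase (GPPS), and their annotation is mixed, so that GGPPS is a label and not a settled identity. Their best Swissprot hit is a chloroplastic protein, so they are not shown to be a step towards rubber. A unigene is a transcript fragment assembled from the reads, and all 10 were found in the table by identifier. They were chosen by their difference in read counts between the same 2 libraries that are compared here, so their direction and size of difference are given as a description, without a test.

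Both libraries came from latex, the cytoplasm that laticifer cells expel when the bark is cut. One library was made from clone CATAS8-79, which the sample labels call RY8-79, and the other from clone PR107. Trees of both clones were untreated and had not been tapped before, and the latex sampled at tapping 1 was a pool of 5 trees for each clone. The labels give an age of 3 years for the trees and the study's methods an age of 7 years. PR107 is among the forebears of CATAS8-79, so the clones are related. Each clone is represented by 1 library, so that no read count could be checked against a replicate library. Differences between trees are averaged within a pool, and every interval covers counting error only.

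Natural rubber is a cis-polyisoprene built from isopentenyl diphosphate. In the cytosol this unit is made by the mevalonate pathway, in which AACT joins acetyl-CoA units, a synthase adds another to form HMG-CoA, and HMGR reduces HMG-CoA to mevalonate, the step usually regarded as rate-limiting. Kinases and a decarboxylase then convert mevalonate to isopentenyl diphosphate. FDPS makes farnesyl diphosphate, a short allylic primer from which a rubber chain can start, GGPPS makes the longer geranylgeranyl diphosphate, and cis-prenyltransferases such as HRT2 add isopentenyl units to the growing chain at the rubber particle surface.

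For 3 of the 10 unigenes the study designed qRT-PCR primers, which are shown because they are the sequences by which these transcripts can be measured again. They are an HMGR, the FDPS and the HRT2 unigene, written 5′ to 3′.
Unigene38121 (HMGR) forward: gccagcggctaagaagaa
Unigene38121 (HMGR) reverse: acctccgggaatcccatc
Unigene33714 (FDPS) forward: agcctattttcttgtcc
Unigene33714 (FDPS) reverse: atagtatgccttccctc
Unigene37088 (HRT2) forward: tttctgttcctagctcatcctgcct
Unigene37088 (HRT2) reverse: tgcatgtcggaatttgctacaatac
The primers were 17 to 25 nt long. The HMGR pair was the richest in G and C, at 55.6% and 61.1%, and the FDPS forward primer had 41.2%. These 3 unigenes were the shortest of the 10, at 270, 358 and 241 bp, and they were the HMGR, prenyl diphosphate and rubber transferase unigenes with the fewest reads in CATAS8-79. The study's qRT-PCR used latex from another batch of trees of each clone, over successive tappings. It reports that Unigene38121 and Unigene37088 stayed high in CATAS8-79, and it names no such outcome for Unigene33714. Those measurements were not analysed here.

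Reads placed on unigenes, in units of 1000000, came to 6.92 for the CATAS8-79 library and 6.87 for the PR107 library, and the median unigene had 38 and 40 reads. For a laticifer marker, Unigene37703, which the study names Hev b 7, 397 and 422 reads were counted, above 97.2% and 97.5% of all unigenes per length. The search words for Hev b 7 found a patatin-like unigene, Unigene27171, which had 417 and 192 reads and was called higher in CATAS8-79 (log2 ratio -1.11). Small rubber particle protein (SRPP, Unigene823) had 51 and 274 reads, and no unigene annotated as hevein was found in the annotated table, which holds 6726 unigenes that the authors called. Of the markers of green tissue, a ribulose bisphosphate carboxylase small chain unigene had 71 and 256 reads and a chlorophyll a-b binding protein unigene had 147 and 38. These green tissue unigenes differed in opposite directions and neither was at 0, with 218 and 294 reads together. Their part in the values below was not tested.

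The 10 unigenes took 1044 reads in CATAS8-79 and 1580 in PR107, which is 0.0151% and 0.0230% of all reads counted. Per length, their RPKM (reads per kilobase of unigene and per 1000000 reads) ran from 11.4 to 71.0 in CATAS8-79 and from 0 to 85.1 in PR107, with medians of 17.1 and 30.5. Thus the spread among them was wider in PR107. In CATAS8-79 all but Unigene11873 lay above the median unigene of the library (11.7 RPKM at the median of all unigenes, and 11.4 for Unigene11873), whereas in PR107 a group of 4 lay far below the median of 12.5.

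By the thresholds of the study (FDR ≤ 0.001 and |log2 Ratio| ≥ 1, here with Fisher's exact test on reads), 9 of the 10 were called, 4 with a higher level in CATAS8-79 and 5 in PR107. Over all unigenes 12.8% were called, 5.7% higher in CATAS8-79 and 7.14% higher in PR107. The members were selected on this contrast, so nothing is read from that count. The median log2 ratio of the 10 was -0.09 with the 0 reads of Unigene38121 set to 3, and that of the 47601 unigenes read in both libraries was 0.03. No member lay near the median of the 10, which falls in the gap between members higher in either clone, so nothing is read from it. The exact test of edgeR was run with an assumed biological coefficient of variation, here the relative spread between pools of a clone. With a value of 0.2, 2 of the 10 were called, Unigene29798 and Unigene38121. With a value of 0.4 none (0 of 10) was called.

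**Figure D1:**
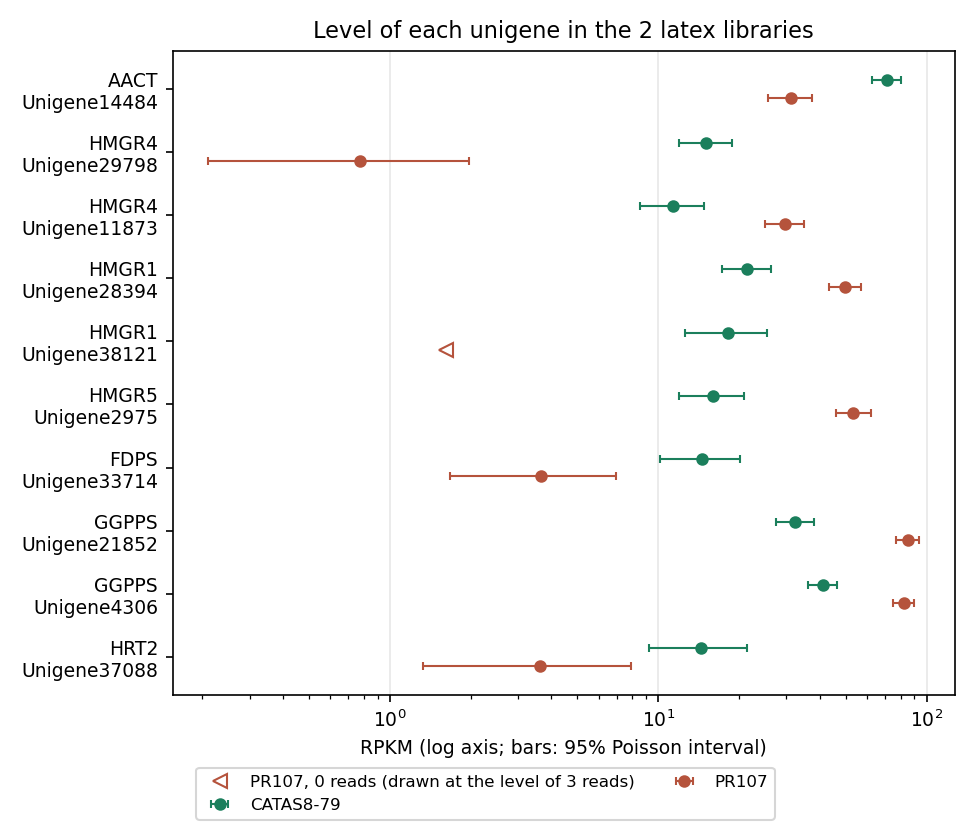
RPKM of each of the 10 unigenes (log axis) in the CATAS8-79 and PR107 libraries, with 95% Poisson intervals of counting error; the open triangle marks 0 reads, drawn at the level of 3 reads. In CATAS8-79 the values lie between 11.4 and 71.0 RPKM, while in PR107 they separate into 6 unigenes from 29.7 to 85.1 RPKM and 4 at 3.66 or below.

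The AACT unigene was higher in CATAS8-79. Any AACT unigene that was not called has no best hit here, so this unigene alone does not give the level of the step. For Unigene14484_All (523 bp), whose best Nr hit is the AACT of H. brasiliensis and whose best Swissprot hit is the cytosolic AACT of Arabidopsis, 257 reads were counted in CATAS8-79 and 112 in PR107. Its level was 71.0 RPKM (interval 62.6 to 80.3) against 31.2 RPKM (25.7 to 37.5), which is 2.28-fold higher in CATAS8-79. It was the highest of the 10 unigenes in CATAS8-79, above 86.0% of all unigenes there. In PR107 it ranked above 70.7% of all unigenes, and both GGPPS unigenes and 2 of the HMGR unigenes were higher.

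The 5 HMGR unigenes divided into 2 that were higher in CATAS8-79 and 3 that were higher in PR107. The study assigned them to 3 HMGR genes, Unigene28394 and Unigene38121 to HMGR1, Unigene11873 and Unigene29798 to HMGR4, and Unigene2975 to HMGR5. The best Nr hit of all 5 is an HMGR of H. brasiliensis. Their best Swissprot hits differ, namely H. brasiliensis HMGR1 for Unigene28394 and Unigene2975, cotton HMG1 for Unigene38121 and Unigene11873, and cotton HMG2 for Unigene29798. Related HMGR transcripts share sequence, so that the split of reads between these unigenes is uncertain.

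Unigene38121_All (270 bp, HMGR1) had 34 reads in CATAS8-79, which is 18.2 RPKM (12.6 to 25.4), and 0 reads in PR107. A floor of 3 reads corresponds to 1.62 RPKM for this unigene in PR107, and against that floor the level was at least 11.2-fold higher in CATAS8-79. With the counting error of both libraries included, the upper limit of the log2 ratio (PR107 over CATAS8-79) was -3.11. The other HMGR1 unigene, Unigene28394_All (626 bp), had 93 reads and 214 reads, or 21.5 RPKM (17.3 to 26.3) and 49.8 RPKM (43.3 to 56.9). It was thus 2.32-fold higher in PR107, the opposite of its partner. In CATAS8-79 the levels of both HMGR1 unigenes had overlapping intervals, and only the longer one was read in PR107.

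The pair assigned to HMGR4 had the same form. Unigene29798_All (755 bp, the longest HMGR unigene) had 79 reads in CATAS8-79 and 4 in PR107, or 15.1 RPKM (12 to 18.9) and 0.77 RPKM (0.21 to 1.98). The difference was 19.6-fold and took the unigene from above 55.9% of all unigenes in CATAS8-79 to above 6.5% in PR107. Unigene11873_All (700 bp) had 55 and 143 reads, or 11.4 RPKM (8.55 to 14.8) and 29.7 RPKM (25.1 to 35.0), which is 2.62-fold higher in PR107. In both pairs, then, one unigene was read in both clones and was higher in PR107, and the other was read mainly in CATAS8-79, with 4 or 0 reads in PR107.

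The HMGR5 unigene stood alone. Unigene2975_All (480 bp) had 53 reads in CATAS8-79 and 176 in PR107, or 16.0 RPKM (12 to 20.9) and 53.4 RPKM (45.8 to 61.9). It was 3.35-fold higher in PR107, the largest difference in that direction among the 10. In PR107 it had the highest level of the HMGR unigenes, with an interval that overlapped that of Unigene28394.

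Reads were summed over the listed unigenes of each gene, which leaves out any that were not called. The opposite members of the HMGR4 pair largely offset each other, and those of the HMGR1 pair did so in part. For HMGR4, the 134 reads of CATAS8-79 stood against 147 of PR107. The log2 ratio (PR107 over CATAS8-79) was 0.14 with an interval of -0.20 to 0.49, so no difference was detectable at this depth although both of its unigenes were called. For HMGR1, 127 and 214 reads gave 0.76 (0.44 to 1.09). This value depended on how the 2 unigenes were weighted, since the sum of RPKM, in which the short Unigene38121 counts for more, gave 39.7 and 49.8 RPKM, a log2 ratio of 0.33. HMGR5, with 1 unigene, had a log2 ratio of 1.74 (1.29 to 2.21). Over all 5, the sum was 82.1 RPKM in CATAS8-79 and 133.7 in PR107.

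**Figure D2:**
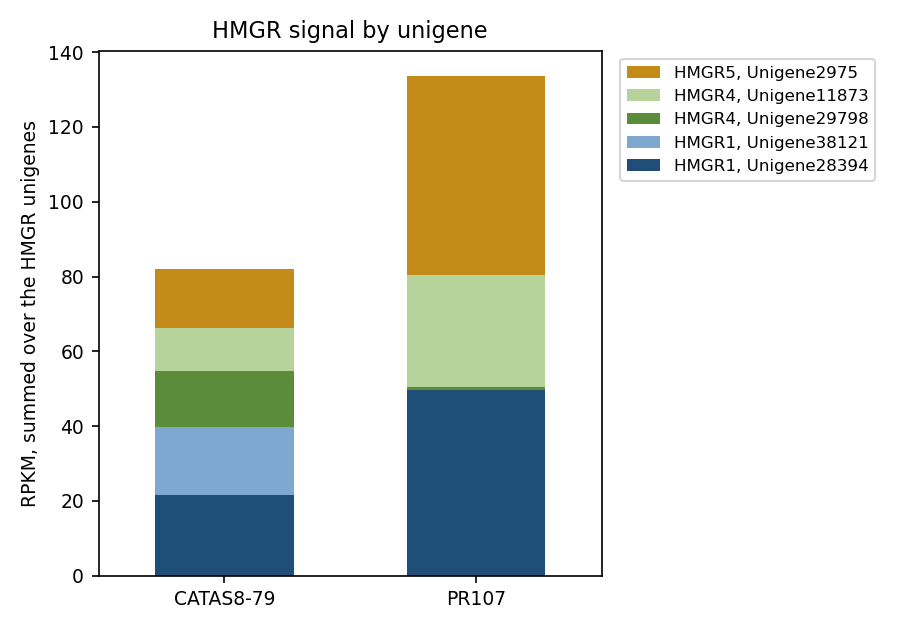
Stacked RPKM of the 5 HMGR unigenes in each library, coloured by the gene the study assigned them to. The stack is 82.1 RPKM in CATAS8-79, where all 5 contribute, and 133.7 RPKM in PR107, where Unigene38121 is at 0 and Unigene29798 at 0.77 RPKM.

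The make-up of the reads of these 5 HMGR unigenes therefore differed between the libraries. A difference of this kind follows from the selection, since all 5 were listed for differing on this contrast and they did so in both directions. The shares and their intervals are given as a description only. Any HMGR unigene that was not called has no best hit here and would be missing from these totals. HMGR1 held 40.5% of the 314 HMGR reads in CATAS8-79 (Clopper-Pearson interval 35.0% to 46.1%) and 39.9% of the 537 in PR107 (35.7% to 44.1%), nearly the same share. HMGR4 held 42.7% (37.1% to 48.4%) in CATAS8-79 and 27.4% (23.6% to 31.4%) in PR107. HMGR5 held 16.9% (12.9% to 21.5%) and 32.8% (28.8% to 36.9%). By share of RPKM, HMGR1 was at 48.3% in CATAS8-79 and 37.2% in PR107, HMGR4 at 32.3% and 22.8%, and HMGR5 at 19.4% and 39.9%. Thus the lower share of HMGR4 and the higher share of HMGR5 in PR107 appeared on both scales, while the near-equal share of HMGR1 did not. For Unigene38121 the 0 of 537 reads in PR107 allows a share of up to 0.559% by the floor of 3 reads, and the Clopper-Pearson upper limit is 0.685%.

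The FDPS unigene was higher in CATAS8-79. Unigene33714_All (358 bp), whose best Nr hit is the FDPS of H. brasiliensis, had 36 reads in CATAS8-79 and 9 in PR107, or 14.5 RPKM (10.2 to 20.1) and 3.66 RPKM (1.67 to 6.95). The fold difference was 3.97, and the unigene lay above 55.1% of all unigenes in CATAS8-79 and above 21.1% in PR107. The intervals of both levels did not overlap, although with 9 reads the PR107 level was known only within a wide range.

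Both GGPPS unigenes were higher in PR107. The study names both GPPS, and their annotation is mixed. They share a best Swissprot hit, the chloroplastic GGPPS-related protein GGR of Arabidopsis. GGR is known in Arabidopsis as a small subunit that binds a GGPPS and shifts its product towards geranyl diphosphate. The best Nr hit of one is instead named geranyl-diphosphate synthase of H. brasiliensis, and this is Unigene21852_All (686 bp), with 154 reads in CATAS8-79 and 401 in PR107. Its level was 32.4 RPKM (27.5 to 38.0) and 85.1 RPKM (77.0 to 93.9), a 2.62-fold difference. Unigene4306_All (912 bp), named geranylgeranyl-diphosphate synthase of H. brasiliensis in Nr, had 259 and 515 reads, or 41.0 RPKM (36.2 to 46.4) and 82.2 RPKM (75.3 to 89.7).

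Unigene4306 was the higher of the pair in CATAS8-79 and the lower in PR107, but in both libraries the intervals of their levels overlapped. In PR107 these were the highest levels of the 10, above 88.1% and 88.6% of all unigenes. Unigene4306 was the unigene nearest the fold threshold on its inner side, with a log2 ratio of 1.0 (0.78 to 1.22), and it fell short of that threshold under the TMM scaling of edgeR and the median-ratio scaling of DESeq2, so that 4 unigenes were then called higher in PR107.

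The rubber transferase unigene was higher in CATAS8-79 and had the fewest reads there. Unigene37088_All (241 bp, the shortest of the 10), which the study names HRT2, had 24 reads in CATAS8-79 and 6 in PR107, or 14.4 RPKM (9.22 to 21.4) and 3.63 RPKM (1.33 to 7.89). It lay outside the FDR threshold, whereas Unigene33714, with the same log2 ratio of -1.99 from 36 and 9 reads, lay inside. The log2 interval was -3.57 to -0.66 for HRT2 and -3.23 to -0.91 for FDPS. Unigene37088 was the only member absent from the annotated table of unigenes that the authors called, although the study's text presents it as differentially expressed. It therefore has no best hit here, and its identity rests on the name in the study.

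**Figure D3:**
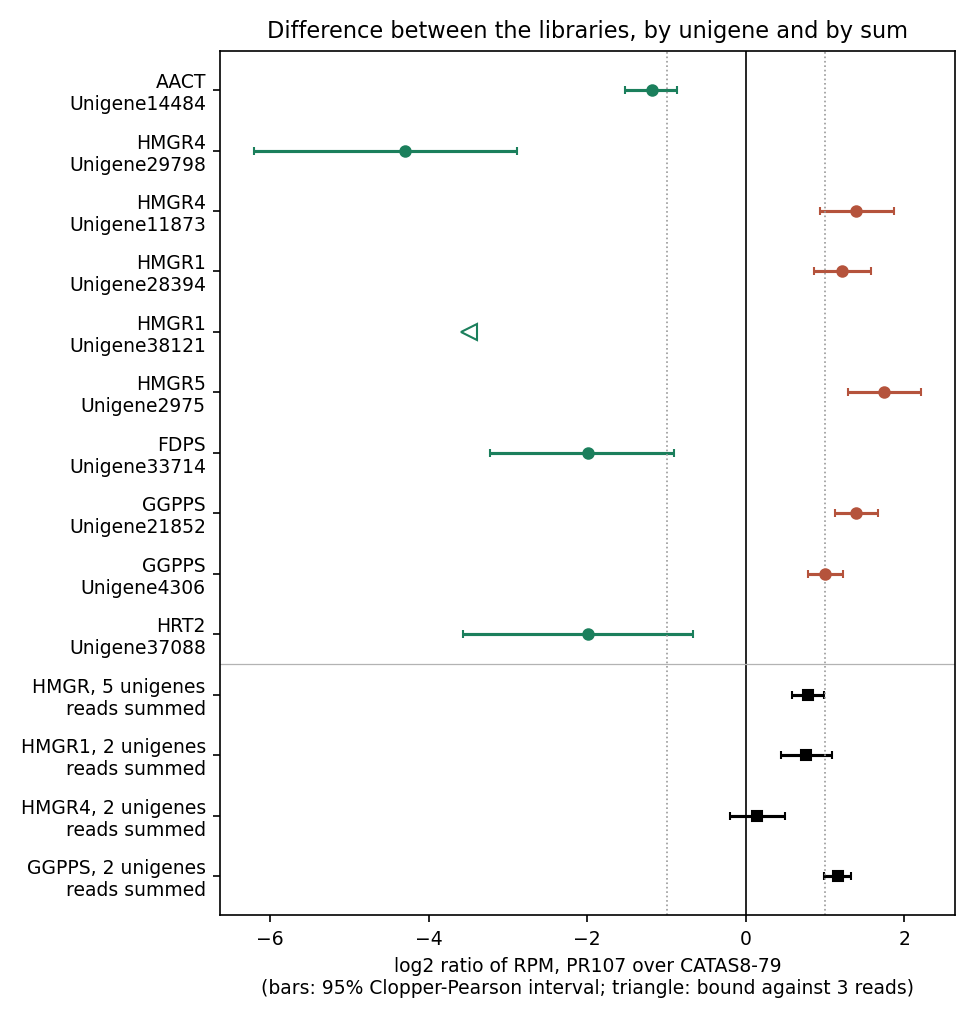
The log2 ratio of RPM (reads per 1000000), PR107 over CATAS8-79, for each unigene (circles) and for reads summed by enzyme or gene (squares), with 95% Clopper-Pearson intervals; the triangle is a bound against 3 reads and dotted lines mark a log2 ratio of -1 and 1. AACT, FDPS, HRT2 and 2 HMGR unigenes lie to the left and the other 5 to the right, and the HMGR4 sum at 0.14 has an interval across 0.

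Set side by side per length, the enzyme labels had a different order in the libraries. In CATAS8-79 the summed levels of AACT (71.0 RPKM), GGPPS (73.5) and HMGR (82.1) lay close together, and those of FDPS (14.5) and HRT2 (14.4) lay well below. In PR107 GGPPS (167.3 RPKM) was the highest, followed by HMGR (133.7) and AACT (31.2), and FDPS (3.66) and HRT2 (3.63) were again the lowest. The ratio of the unigenes labelled GGPPS, with a mixed annotation and a chloroplastic best hit, to FDPS was 5.06 in the CATAS8-79 library and 45.7 in the other. The ratio of HMGR to AACT was 1.16 and 4.29. The ratio of HRT2 to FDPS was 0.99 in each library. FDPS rests on 36 and 9 reads and HRT2 on 24 and 6, so ratios that hold either are uncertain, most of all in PR107. No interval was computed for these ratios. These sums depend on which unigenes were listed, and unigenes that are fragments of one transcript each add their own RPKM to a sum.

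Other genes of the route were looked up by name in the best hits of the 6726 annotated unigenes, of which 55.1% were higher in PR107. Of 6 mevalonate enzymes, only AACT and HMGR were found, and no further unigene of either. HMG-CoA synthase, mevalonate kinase, phosphomevalonate kinase, diphosphomevalonate decarboxylase and isopentenyl diphosphate isomerase were not found, and since best hits are given only for called unigenes, their levels were not analysed here. FDPS and GGPPS were likewise represented by the members alone. The words for cis-prenyltransferases found 2 unigenes, Unigene6904 (52 and 149 reads) and Unigene22915 (12 and 63 reads), but both are annotated as para-hydroxybenzoate polyprenyltransferase, an enzyme of ubiquinone synthesis, and not as a rubber transferase.

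At the rubber particle, 1 annotated unigene was found. SRPP, an abundant protein of the rubber particle surface, was represented by Unigene823 (866 bp), with 8.51 RPKM in CATAS8-79 and 46.1 RPKM in PR107, a 5.41-fold difference with a log2 interval of 2.0 to 2.90. Unigene823 was higher in PR107, like GGPPS and unlike HRT2. It lay above 42.5% of all unigenes in CATAS8-79 and above 78.6% in PR107. Any SRPP unigene that was not called has no best hit here, so Unigene823 alone does not give the level of SRPP. Rubber elongation factor was not found among the annotated unigenes.

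Genes that supply or draw on acetyl-CoA were found in both directions, 3 of 6 higher in each clone. As best hits are given for called unigenes alone, that all 6 were called follows from the search. The 2 acetyl-CoA carboxylase unigenes, whose enzyme also draws on acetyl-CoA, were higher in CATAS8-79. Unigene33452 had 210 and 103 reads and Unigene23997 had 176 and 71, with log2 ratios of -1.02 and -1.30. Unigene23939, the alpha subunit of pyruvate dehydrogenase, which makes acetyl-CoA in organelles, had 51 and 113 reads, a log2 ratio of 1.16 (0.67 to 1.67). The ratios of both carboxylase unigenes lay near that of AACT, -1.19. Ratios of called unigenes start at an absolute value of 1, so nothing is read from this nearness.

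The list of enzymes that use farnesyl or geranylgeranyl diphosphate outside rubber synthesis also holds squalene epoxidase and ent-kaurene synthase, which act a step later. Of its 16 unigenes, all called for the same reason, 8 were higher in each clone. Without the 6 squalene epoxidase unigenes, 4 were higher in CATAS8-79 and 6 in PR107, the latter still with the ent-kaurene synthase hits Unigene51516 and Unigene51609. The 3 with the most reads differed in direction. Unigene27401, whose best Swissprot hit is the rat Rab geranylgeranyl transferase alpha subunit, part of an enzyme that attaches geranylgeranyl groups to proteins, had 864 and 338 reads, a log2 ratio of -1.34 (-1.53 to -1.16). Unigene32650, the beta subunit of protein farnesyltransferase, had 470 and 52 reads, 8.97-fold higher in CATAS8-79. Unigene51810, with the same best hits, was the reverse, with 75 and 247 reads, 3.32-fold higher in PR107, and is named here after its values were seen. Unigene51710 is annotated in different ways, its best Nr hit being casbene synthase, a diterpene synthase that uses geranylgeranyl diphosphate, and its best Swissprot hit delta-cadinene synthase, which uses farnesyl diphosphate. It had 9 and 373 reads, a 41.8-fold higher level in PR107 with a log2 interval of 4.44 to 6.52.

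**Figure D4:**
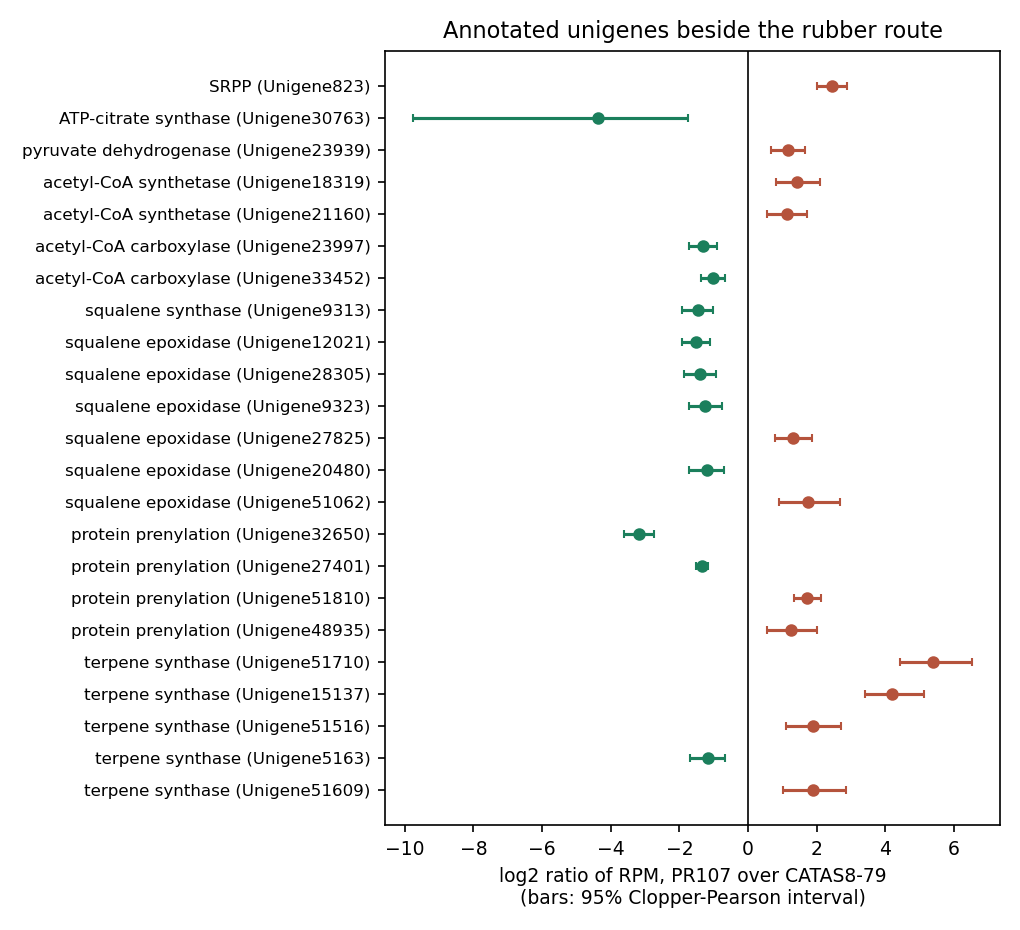
The log2 ratio of RPM, PR107 over CATAS8-79, for the annotated unigenes of the rubber particle (SRPP), of acetyl-CoA supply and of prenyl diphosphate use. The last group includes squalene epoxidase and ent-kaurene synthase. Bars are 95% Clopper-Pearson intervals. SRPP at 2.44 lies to the right, the 22 others are even in direction, and the casbene synthase hit Unigene51710 at 5.38 lies farthest to the right.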

How the data were processed

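Per the file headers and the study's methods, the authors built unigenes from the Illumina reads of both clones with SOAPdenovo (version not given in the sources used here) and deposited the unnormalised read count of each unigene. The deposited RPKM equals reads per kilobase and per 1000000 counted reads to within 5.0e-05. Unigene lengths are in bp. The submitters' processing notes also name the build mm9, a mouse build, and no genome coordinates were used. Columns of the authors' own log2 ratio, p-value and FDR were not used, nor were 2 RPKM columns of the second table.

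Reads of a unigene and the remaining reads of each library formed the table for Fisher's exact test (two-sided), and the FDR is the Benjamini-Hochberg value over all 51192 unigenes. Calls needed FDR ≤ 0.001 and |log2 Ratio| ≥ 1, after the study's methods. No spread can be estimated from 1 library per clone, so the quasi-likelihood test was not fitted and no replicate was left out. The test compares the libraries, not the clones. Intervals are 95% Clopper-Pearson (ratios, shares) or exact Poisson (RPKM) intervals. They cover counting error only, since without molecular identifiers PCR copies count as reads. A count of 0 was set to a floor of 3 reads for a bound. The test was also run on simulated counts that held counting error alone, with differences set only in well-read unigenes. This cannot show how it behaves with spread between trees or at few reads. Members, lists of search words and tests were chosen with earlier results of these data known. All 10 members are named, and further unigenes are those found by the search words, with the 3 that had the most reads for the longer lists of acetyl-CoA supply and prenyl diphosphate use. HMGR genes follow the study's assignment. Primer sequences come from the study's primer list. Of 50196 RefSeq genes, 0 matched a unigene identifier, and protein sequences were not used here. Alternatives were TMM and median-ratio scaling, a minimum of 10 reads over both libraries, the exact test of edgeR with a biological spread fixed at 0.2 or 0.4, and other ways to sum unigenes. Counts were scaled and refitted with edgeR 4.0.16 and DESeq2 1.42.0 under R 4.3.3. Other values came from scipy 1.17.1 and pandas 2.3.3 under Python 3.11.15, and plots from matplotlib 3.10.9.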

Additional observations from a re-analysis of the deposited data

How the results depend on the processing

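When the exact test of edgeR was run with the biological coefficient of variation set to 0.2, it called 1515 unigenes, 796 higher in PR107 and 719 in CATAS8-79, and of the 10 unigenes 2 were called higher in CATAS8-79 and 0 in PR107. With an assumed value of 0.4 the counts were 190, 101 and 89, and 0 of the 10 in either direction. Fisher's exact test, which allows for counting error alone, gave 6577, 3657 and 2920. The share of calls higher in PR107 was 55.6% there, 50.3% under TMM scaling (3298 and 3260) and 51.5% under median-ratio scaling (3391 and 3188). No paired analysis was possible because each clone has 1 library. Under TMM and median-ratio scaling all log2 ratios shifted by -0.05 and -0.03, and every log2 ratio of the 10 kept its direction. When the longest unigene stood for its enzyme or gene, HMGR and HMGR4 both took the log2 ratio of Unigene29798, -4.29, which reverses that of HMGR, and HMGR1 became 1.21. With RPKM summed in place of reads, HMGR1 became 0.33. By share of RPKM in place of reads, HMGR1 became 48.3% in CATAS8-79, HMGR4 32.3% in CATAS8-79 and 22.8% in PR107, and HMGR5 39.9% in PR107. Depth limits Unigene29798, Unigene38121, Unigene33714 and Unigene37088, which had under 10 reads in PR107.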

Other observations

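The squalene branch, which takes farnesyl diphosphate to sterols and triterpenes, was described after its values were seen. Its squalene synthase unigene, Unigene9313, had 51.8 RPKM in CATAS8-79 and 18.9 RPKM in PR107 from 166 and 60 reads, a log2 ratio of -1.46 (-1.91 to -1.02). The squalene epoxidase unigenes that follow it numbered 6, with 634 and 375 reads together, a log2 ratio of -0.75 (-0.93 to -0.56). Of these, Unigene12021, Unigene28305, Unigene9323 and Unigene20480 were higher in CATAS8-79, and Unigene27825 (41 and 101 reads) and Unigene51062 (15 and 50 reads) were higher in PR107. As for HMGR, unigenes with the same annotation went in both directions.

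The unigenes with a best Nr hit to casbene or ent-kaurene synthase, which are diterpene synthases, were mostly higher in PR107, 4 of 5. This count was also read after the values were seen. Besides Unigene51710, the casbene synthase hit Unigene15137 had 13 and 237 reads, 2.35 and 43.2 RPKM, and the ent-kaurene synthase hits Unigene51516 and Unigene51609 had 18 and 66 reads and 14 and 52 reads. The exception, Unigene5163, also a casbene synthase hit, had 111 reads in CATAS8-79 and 49 in PR107. The ATP-citrate lyase unigene Unigene30763, which makes acetyl-CoA in the cytosol, had 21 reads and 1 read, and the interval of its log2 ratio of -4.38 was wide (-9.75 to -1.75).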
